A study of Rattus norvegicus with 2 samples.

Results

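The miR-29 family was described in small RNA libraries of rat hippocampus after status epilepticus (SE). Its members were taken by name, as every row of the deposited table for miR-29a, miR-29b or miR-29c with any copy or arm suffix, and 6 of the 390 rows met this rule. They are the 3p arms miR-29a-3p, miR-29b-3p and miR-29c-3p and the 5p arms miR-29a-5p, miR-29b-2-5p and miR-29c-5p. The Experimental group was Wistar rats aged 5 months in SE after 20 min of electrical stimulation of the right amygdala (its lateral nucleus), and the Control group was Wistar rats of the same age with sham stimulation. Per the study's methods all rats were male and carried an implanted electrode, control rats received no current, and RNA came from the left hippocampus, the side opposite to the electrode, 24 hours after SE. RNA of the rats of each group was pooled, and 1 library per group was sequenced. The data therefore hold no spread between animals, and each difference given is that of a single pair of libraries without replicates.

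MicroRNAs are cut from hairpin precursors, and 1 arm of the hairpin usually accumulates as the mature strand that guides the silencing complex to target transcripts. Pairing is led by the seed, bases 2 to 8 counted from the 5′ end. The miR-29 family is known for silencing collagens and other matrix genes, the de novo DNA methyltransferases and, in maturing neurons, the BH3-only genes that trigger apoptosis. In brain it is known to be abundant in astrocytes and to increase as neurons mature. Whole hippocampus was sequenced, so that fewer cells of a type and less of a miRNA per cell cannot be told apart.

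The mature sequences show what the members share and where they part, and are given here from RefSeq (GRCr8), 5′ to 3′, with the seed in capitals. All 6 members had a sequence there, that of miR-29b-2-5p being listed as the 5p arm of the Mir29b2 gene.
miR-29a-3p: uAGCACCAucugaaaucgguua
miR-29b-3p: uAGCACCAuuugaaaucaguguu
miR-29c-3p: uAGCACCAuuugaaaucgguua
miR-29a-5p: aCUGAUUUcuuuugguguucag
miR-29b-2-5p: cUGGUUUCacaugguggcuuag
miR-29c-5p: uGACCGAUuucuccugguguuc

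The 3p arms carried 1 seed in common, AGCACCA, while each 5p arm had a seed of its own. Of the 328 known miRNAs of the table, 297 matched a RefSeq mature miRNA by name, and 3 of these carried that seed, namely the 3p arms themselves. Positions are counted from 1 at the 5′ end. MiR-29a-3p differed from miR-29c-3p by the single substitution C10U. The first 17 bases of miR-29b-3p and miR-29c-3p were the same, after which A18G, G21U and U22A and a further base at the 3′ end of miR-29b-3p set them apart. The last 6 bases of miR-29b-3p, AGUGUU, are known as a signal for import into the nucleus, and 2 of the 297 matched miRNAs ended in them, miR-29b-3p and miR-92b-5p. Because a single base separates miR-29a-3p from miR-29c-3p, the way the authors' counting assigned reads with a mismatch, which is not given in the sources used here, could move reads between these rows.

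The hairpins are shown with the annotated arms in capitals, because they give the arms that share a precursor. In GRCr8 they form a pair of clusters, Mir29a with Mir29b1 on the minus strand of chromosome 4 with 291 bases between the hairpins, and Mir29b2 with Mir29c on the plus strand of chromosome 13 with 447 bases between them. Mir29a lies at chr4:60617955-60618042, Mir29b1 at chr4:60618334-60618414, Mir29b2 at chr13:109098831-109098911 and Mir29c at chr13:109099359-109099446.
Mir29a: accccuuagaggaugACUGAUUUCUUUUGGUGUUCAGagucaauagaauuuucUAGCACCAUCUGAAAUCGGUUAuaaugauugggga
Mir29b1: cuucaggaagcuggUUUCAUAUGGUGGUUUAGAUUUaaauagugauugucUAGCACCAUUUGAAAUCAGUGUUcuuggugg
Mir29b2: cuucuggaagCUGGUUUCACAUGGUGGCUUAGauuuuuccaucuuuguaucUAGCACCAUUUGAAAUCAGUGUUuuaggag
Mir29c: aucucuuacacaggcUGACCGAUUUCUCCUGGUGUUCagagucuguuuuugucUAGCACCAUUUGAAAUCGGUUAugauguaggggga
Both Mir29b hairpins yield the same miR-29b-3p, so that its count sums both clusters. MiR-29a-3p comes only from the chromosome 4 cluster, and miR-29c-3p only from that on chromosome 13. The name rule found no row for the 5p arm of Mir29b1.

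The table's counts summed to 5678090 in the experimental library and 6703056 in the control library, which was 78.4% and 76.7% of the clean reads of each. Levels below are counts per 1000000 clean reads (CPM), in which a single count was worth 0.138 in the experimental library and 0.114 in the control library. Ratios are log2 of the experimental CPM over the control CPM. Their 95% intervals are Clopper-Pearson intervals (exact binomial) and cover counting error only. Over the 285 miRNAs with at least 30 counts in either library the median log2 ratio was 0.10, and the quartiles were -0.22 and 0.54. Scaling by edgeR's TMM moved this median to -0.079 and leaving the counts unscaled moved it to -0.17, so each member's ratio is also given minus this median, a value that is the same under every scaling. Erythrocyte miRNAs (3 rows, 1 of them with at least 30 counts) summed to 30.9 CPM in the experimental library and 13.6 in the control library, and the part of such a difference in the ratios of miR-29 was not tested. Per the study's methods, the rats had been perfused with saline to clear blood from the vessels.

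The family was dominated by miR-29a-3p, and its summed level was slightly lower in the experimental library. All 6 rows together held 108541 reads in the experimental library (14988.6 CPM) and 152265 in the control library (17427.8 CPM). They made up 1.91% of the table's counts in the former and 2.27% in the latter. The log2 ratio of the sum was -0.22 (95% interval -0.23 to -0.21), or 0.860 times the control level, and -0.32 relative to the median of the table. None of the 6 members passed a log2 ratio of 1 or -1, against 10.2% of the 285 miRNAs above 1 and 2.11% below -1. None passed 2 or -2, the study's own threshold, against 3.16% above 2 and 1.05% below -2. With 6 members a count of 0 is close to what these shares give. All 3 miRNAs below -2 were without reads in the experimental library, so their ratios rest on counts under 3 being set to 3.

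**Figure D1:**
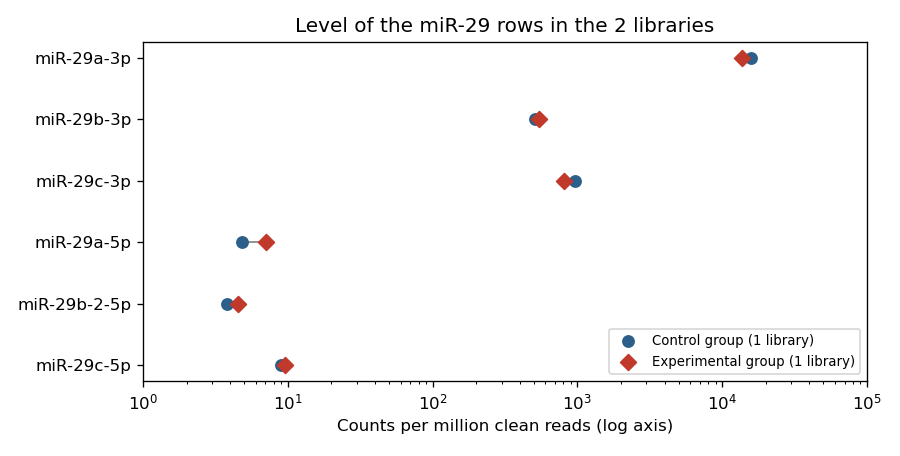
Counts per 1000000 clean reads (log axis) of the 6 miR-29 rows in the experimental library (red diamonds) and the control library (blue circles), 1 pooled library each and hence no error bars. MiR-29a-3p lies at 13613.1 and 15933.4, the other 3p arms between 510 and 967, and the 5p arms below 10.

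MiR-29a-3p had 98580 counts in the experimental library and 139209 in the control library, 13613.1 and 15933.4 CPM. It ranked 7 in abundance in both libraries, below let-7e-5p and above let-7d-5p in each. The experimental level was 0.854 times that of the control library, a log2 ratio of -0.23 (interval -0.24 to -0.22) and of -0.33 relative to the median of the table. Its share of the summed 3p arms was 91.0% (exact binomial interval 90.8 to 91.1) in the experimental library, against 91.5% (91.4 to 91.7) in the control library.

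MiR-29c-3p, which differs from miR-29a-3p by 1 base but comes from the other cluster, had 5893 and 8448 counts, or 813.8 and 966.9 CPM. Its rank was 36 in the experimental library and 28 in the control library. The log2 ratio of -0.25 (interval -0.30 to -0.20) corresponds to 0.842 times the control level. Relative to the median of the table it was -0.35.

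MiR-29b-3p, the member with the nuclear import signal and a copy in both clusters, had 3915 and 4455 counts. These were 540.6 CPM in the experimental library and 509.9 in the control library, at ranks 46 and 44. Its log2 ratio was 0.084 (interval 0.022 to 0.15), or 1.06 times the control level, and -0.016 relative to the median of the table. The sign of this ratio turned with the scaling, to -0.095 with TMM, -0.0058 with DESeq2's size factors and -0.19 unscaled, so that no direction can be given. Among the 3p arms its share was 3.61% (interval 3.50 to 3.73) in the experimental library, against 2.93% (2.84 to 3.02) in the control library. These intervals did not overlap, nor did those of miR-29a-3p, while those of miR-29c-3p did. Differences beyond counting error were common among abundant miRNAs, as given below.

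The 5p arms, the strands that are mostly discarded from these hairpins, were 3 rows with few reads. For miR-29a-5p there were 51 reads in the experimental and 42 in the control library (7.04 and 4.81 CPM), with a log2 ratio of 0.55 (interval -0.067 to 1.18). MiR-29b-2-5p had 33 counts in each library and a log2 ratio of 0.27 (interval -0.47 to 1.01). For miR-29c-5p there were 69 and 78, and the log2 ratio was 0.094 (interval -0.39 to 0.58). Relative to the median of the table these ratios were 0.45 for miR-29a-5p, 0.17 for miR-29b-2-5p and -0.0070 for miR-29c-5p. A difference was thus not detectable at this depth for any 5p arm, since each interval held 0. Together they had 153 counts in each library and a log2 ratio of 0.27 (interval -0.062 to 0.60), which allows a level from 0.958 to 1.52 times that of the control library.

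With counting error alone, the intervals of 2 members lay below 0 (miR-29a-3p and miR-29c-3p), against 22.8% of the 285 miRNAs, and that of 1 member lay above 0 (miR-29b-3p), against 40.4%. The interval of miR-29b-3p lay above 0 with the clean reads only, among the 6 scalings. Such an interval is narrow wherever counts are high. Among the 83 known miRNAs with at least 1000 counts in either library, the interval lay below 0 for 36 and above 0 for 40. Of these 83, 22 had a lower log2 ratio than miR-29a-3p, 20 a lower one than miR-29c-3p and 47 a lower one than miR-29b-3p. The limit of 1000 counts was chosen after the data were seen.

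**Figure D2:**
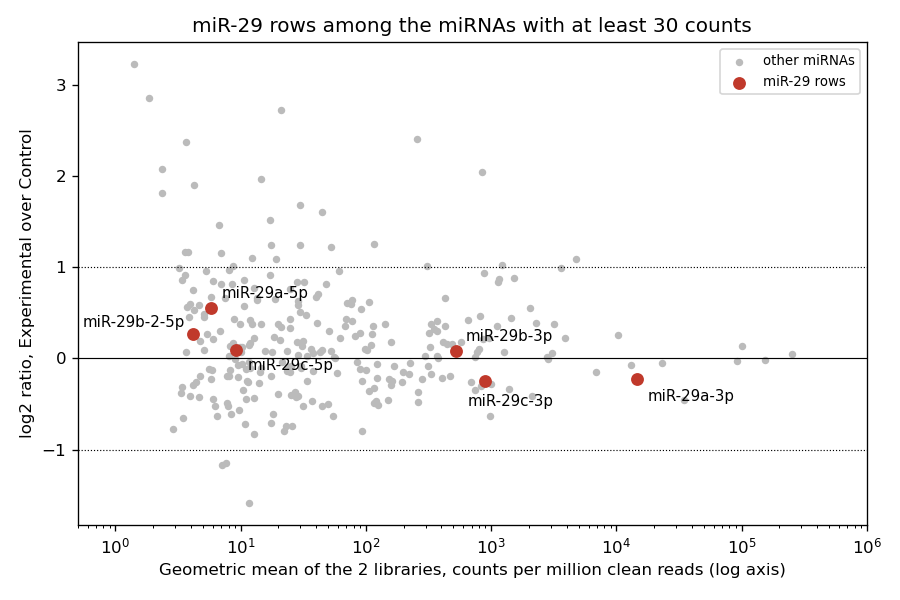
Log2 ratio of experimental over control CPM against the geometric mean CPM of both libraries (log axis), for 280 of the 285 miRNAs with at least 30 counts in either library (5 with 0 counts in 1 library are left out). The 6 miR-29 rows (red) lie inside the dotted lines at 1 and -1, and the 3p arms sit among the more abundant miRNAs with ratios between -0.25 and 0.084.

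Ratios between members within a library do not depend on the scaling, and they were compared between the libraries with conditional odds ratios and two-sided Fisher's exact tests. These tests speak of the sequenced libraries alone, since no variation between rats enters them. MiR-29a-3p was 25.2 times as abundant in counts as miR-29b-3p in the experimental library and 31.2 times in the control library, a log2 odds ratio of -0.31 with a 95% interval of -0.37 to -0.25 (adjusted p = 1.07e-21 by Fisher's exact test, over 3403 pairs of abundant miRNAs). MiR-29b-3p had 0.664 counts for each count of miR-29c-3p after SE and 0.527 in the control library, a log2 odds ratio of 0.33 with an interval of 0.25 to 0.41 (adjusted p = 1.76e-16 by Fisher's exact test). The ratio of miR-29a-3p to miR-29c-3p was 16.7 after SE and 16.5 in the control library, and its log2 odds ratio of 0.022 had an interval of -0.028 to 0.071 (Fisher's exact test, adjusted p = 0.416). For miR-29a-3p and miR-29c-3p, which differ by 1 base, the 95% counting interval thus reached no further than 0.071 on the log2 scale. MiR-29b-3p differed from each of them. Reads of miR-29a-3p counted as miR-29c-3p could make the latter row follow the former, and this was not tested.

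Shifts of this size were common in the table. The 3403 pairs were all pairs of the 83 known miRNAs with at least 1000 counts in either library. By the same test with an adjusted p under 0.05, 85.9% of them differed between the libraries, and 59.6% had a log2 odds ratio larger in size than that of miR-29a-3p and miR-29b-3p. The difference of miR-29b-3p from the other 3p arms is thus no larger than most differences between abundant miRNAs of these libraries.

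Over all 15 pairs of the 6 members, the 95% interval of the log2 odds ratio excluded 0 in 4 and held 0 in 11. By the Fisher's exact test with adjustment, the same number was called, 26.7% of the pairs. In the miR-30 family 27 of 45 pairs (60.0%) were called and in the miR-181 family 15 of 21 (71.4%). These shares are not comparable, because 12 of the 15 miR-29 pairs hold a 5p arm with few reads. Among rows with at least 1000 counts, 2 of 3 pairs were called for miR-29, 2 of 3 for miR-181 and 1 of 1 for miR-30. The 4 called among the 15 pairs were both pairs of miR-29b-3p with another 3p arm and the pairs of miR-29a-5p with miR-29a-3p and with miR-29c-3p. For miR-29c-3p against miR-29a-5p the log2 odds ratio was -0.80 (interval -1.43 to -0.18). MiR-29b-3p against miR-29c-5p gave -0.0095 (interval -0.50 to 0.48), so that these low counts leave room for a change of about 0.5 in either direction.

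**Figure D3:**
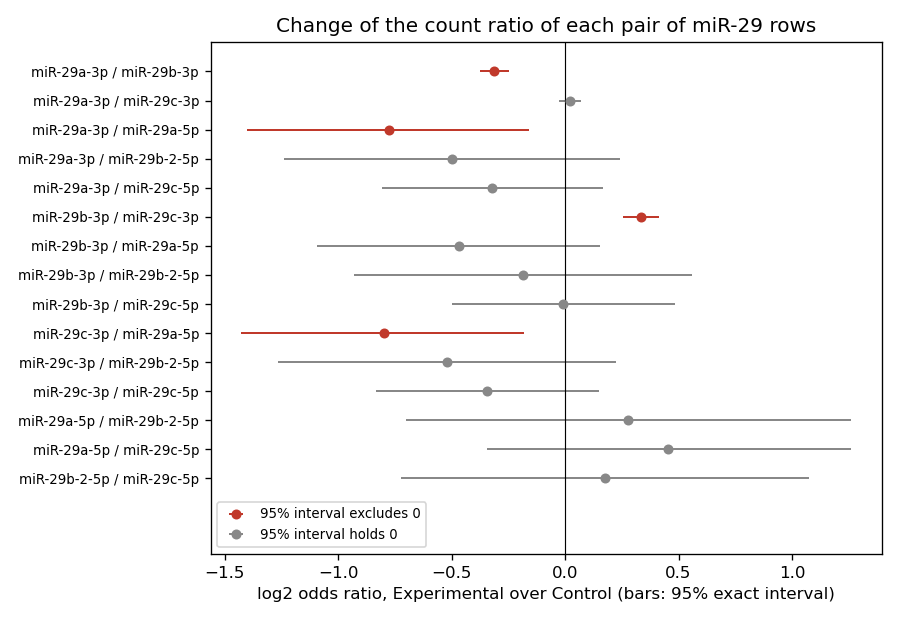
Log2 odds ratio (experimental over control) of the counts of each of the 15 pairs of miR-29 rows, first name over second, with 95% exact conditional intervals. Intervals that exclude 0 (red) are seen for 4 pairs, and pairs that hold a 5p arm have wide intervals.

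The arms of a precursor can be compared for miR-29a and miR-29c. The 5p arm made up 0.0517% of the reads of both miR-29a arms (exact binomial interval 0.0385 to 0.0680) in the experimental library and 0.0302% (0.0217 to 0.0408) in the control library. The log2 odds ratio of the 5p over the 3p arm was 0.78 (Fisher's exact test, adjusted p = 0.0256 over 55 precursors). This rests on 51 and 42 reads of the 5p arm. For miR-29c the 5p share was 1.16% (interval 0.902 to 1.46) in the experimental library and 0.915% (0.724 to 1.14) in the control library, and the log2 odds ratio was 0.34 (Fisher's exact test, adjusted p = 0.255).

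The 55 precursors were those in which both arms reached 30 counts in either library. Of them 45.5% had an adjusted p under 0.05, 25.5% with a higher 5p share in the experimental library, so that 1 of 2 for miR-29 is close to the rest of the table. The median share of the less abundant arm in the control library was 12.4% over these precursors. MiR-29a had the lowest share of all 55, and miR-29c ranked 6 from the lowest. Arms were paired by name, which left out the 29b arms, since miR-29b-2-5p carries a copy number and miR-29b-3p does not. MiR-29b-3p also sums reads of both Mir29b hairpins.

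**Figure D4:**
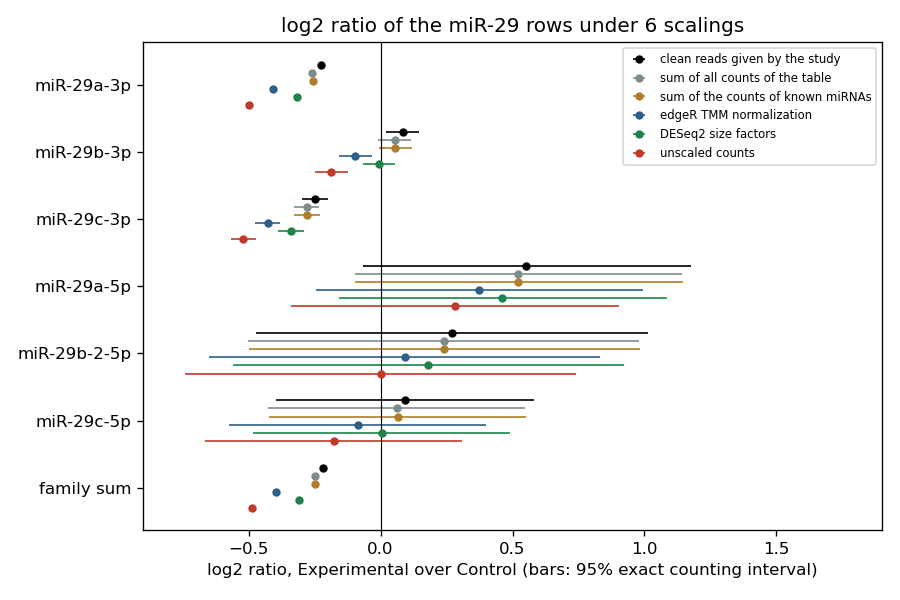
Log2 ratio of experimental over control for the 6 miR-29 rows and their sum under 6 scalings of the libraries, with 95% exact counting intervals. MiR-29a-3p, miR-29c-3p and the sum stay below 0, between -0.52 and -0.22, while miR-29b-3p runs from -0.19 to 0.084 and changes sign.

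By level in both libraries, the known miRNAs most like miR-29a-3p were let-7d-5p, miR-103-3p and let-7e-5p. Their Euclidean distances over log2 CPM in the 2 libraries were 0.26, 0.79 and 0.95. With 92668 and 117649 counts, let-7d-5p stood at a log2 ratio of -0.074 (interval -0.086 to -0.061). MiR-103-3p had a log2 ratio of 0.26 (0.25 to 0.27) and let-7e-5p one of -0.056 (-0.065 to -0.046). With 2 libraries, likeness of this kind is mainly likeness in level.

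Against other families with several members and both arms, the sum of miR-29 had the lower ratio. The 10 rows of miR-30 summed to a log2 ratio of 0.33 (interval 0.30 to 0.37). The 8 rows of miR-181 summed to 0.86 (0.83 to 0.89), and neither interval overlapped that of miR-29. Such differences are common at this depth, since 85.9% of the pairs of abundant single miRNAs differed between the libraries by the test above. In the experimental library miR-29a-3p held 90.8% of the miR-29 reads. There miR-181a-5p (15063 counts) and miR-181b-5p (11068) held most of the 29732 counts of miR-181. The ratios of single rows did overlap between the families. Those of miR-29 ran from -0.25 to 0.55 with a median of 0.089, those of miR-30 from -0.57 to 0.95 with a median of 0.48, and those of miR-181 with at least 30 counts (7 of 8) from -0.75 to 1.02 with a median of 0.63.

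Other miRNAs linked to astrocytes pointed both ways. Of the 10 rows listed (miR-23, miR-26a, miR-27, miR-143 and miR-449a, of which miR-143 is also abundant in smooth muscle), 8 had at least 30 counts, with a median log2 ratio of 0.042 beside 0.10 over the table. The interval lay above 0 for 4 of the 8 (40.4% over the table) and below 0 for 3 (22.8% over the table), counts too small to set the list apart. The lowest was miR-27b-3p at -0.33 and the highest miR-27b-5p at 0.81. In the neuron list (miR-124, miR-128, miR-137 and miR-138) 8 of 9 rows had at least 30 counts, with a median of 0.47. They ran from miR-138-1-3p at -0.52 to miR-124-3p at 1.09, and their summed level was 37665.0 CPM in the experimental library and 44611.7 in the control library. The lower sum was that of miR-128-3p, which held 78.6% and 90.9% of these reads and had a log2 ratio of -0.45. The other 8 rows summed to 8055.0 and 4061.2 CPM, a log2 ratio of 0.99 (interval 0.97 to 1.01). Most of this remainder was miR-124-3p, with 6957.1 CPM in the experimental library and 3262.0 in the control library. The ratio of the remainder is thus mainly that of 1 row, and not of the 8 rows together. Setting miR-128-3p apart was not part of the design. Oligodendrocyte miRNAs (5 rows) had a median of 0.069, and ran from miR-338-5p at -0.72 to miR-219-1-3p at 1.17. Those of microglia and leukocytes (4 rows) had a median of -0.10, and ran from miR-150-5p at -0.48 to miR-150-3p at 1.91. The 2 rows of endothelium and smooth muscle with at least 30 counts, of 4 in all, had a median of 0.21. No row found for these lists had 0 counts in either library. For the listed names miR-9, miR-126, miR-155, miR-223 and miR-486 no row was found. The part of a changed cell composition in the miR-29 ratios was not tested.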

How the data were processed

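Small RNA was sequenced from 1 pooled hippocampal library per group on an Illumina instrument. Per the study's methods, low-quality, short and single-read sequences were discarded. Read counts per miRNA were deposited by the authors as whole numbers without scaling, although the table's header speaks of normalized signal. The submitters' processing notes name the rn5 build, and the aligner and miRBase release are not given in the sources used here. The authors' 2 columns of p-values were not used.

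Counts were divided by the study's clean reads, which are not printed here. Counts under 3 would be set to 3 before a ratio, and no member was that low. With 1 library per group no test of the condition was made. Exact Clopper-Pearson intervals (95%) and two-sided Fisher's exact tests cover counting error only, since a single pooled library stands for each group. Reads without molecular identifiers are not independent molecules. The intervals can therefore be too narrow, and the p-values too small, even for counting error. P-values were adjusted by Benjamini-Hochberg over all precursors or all pairs of abundant miRNAs. The design adjusted over the 15 member pairs, which is not printed as a p.

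The family was taken by name. MiRNAs named beside it were those nearest in level to miR-29a-3p and those of the miR-30, miR-181, cell type and BCL2-family lists. The cell type and BCL2-family lists held all rows of their names, with any arm or copy suffix. Members and lists were chosen with earlier results of these data known. Intervals were tested on simulated independent (Poisson) counts, the kind of count that they assume. They covered the true log2 ratio for 93.8% of 289 simulated miRNAs, and the true log2 odds ratio in 97.0% of 100 simulations. Reads that are not independent and variation between rats were not simulated. DESeq2 1.42.0 (size factors only) and edgeR 4.0.16 (TMM only) ran in R 4.3.3, and the rest in Python 3.11.15 with pandas 2.3.3 and scipy 1.17.1.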

Additional observations from a re-analysis of the deposited data

How the results depend on the processing

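No paired analysis was possible because a single pooled library stands for each group, and no replicate could be left out. The log2 ratio of the summed miR-29 family was -0.22 with the clean reads, -0.25 with the sum of all counts of the table, -0.25 with the sum of known miRNAs, -0.31 with DESeq2's size factors, -0.40 with TMM and -0.49 unscaled. These scalings shift every miRNA alike. MiR-29b-3p changed sign, from 0.084 to -0.095 with TMM, -0.0058 with DESeq2's size factors and -0.19 unscaled. The number of members past a log2 ratio of 1 was 0 under each scaling, each minimum count and with a log2 ratio of 2, while 3 members had a counting interval that excluded 0 with the clean reads. That number was 3 with TMM and unscaled, all of them below 0, and 2 with the other scalings, where the interval of miR-29b-3p held 0. The number of member pairs called, 4 of 15, was the same without adjustment and with a minimum of 10 counts. A pseudocount of 1 moved no member's ratio or arm share beyond its counting interval. Depth limits the 5p arms, which had 33 to 78 counts.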

Other observations

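The BH3-only targets known for miR-29b belong to the BCL2 family. Other miRNAs known to act on BCL2-family transcripts were listed by name (such as miR-15b, miR-16, miR-34a, miR-24, miR-92a and miR-181). Every arm of a listed name was taken, which gave 19 rows. Opposite arms such as miR-181a-1-3p are thus listed by name only, and no such action is implied for them. Of the 19 rows, 17 had at least 30 counts, with a median log2 ratio of 0.23 beside 0.10 over the table. The interval lay above 0 for 7 (40.4% over the table) and below 0 for 2 (22.8% over the table), and 1 row, miR-20a-5p at 2.86, passed a log2 ratio of 1 (10.2% over the table), so that these counts do not set the list apart. The lowest was miR-181a-1-3p at -0.75. The full list summed to 4777.3 CPM in the experimental library and 3052.8 CPM in the control library, a log2 ratio of 0.65 (interval 0.62 to 0.67). The 5 miR-181 rows held 76.0% of the list's reads in the experimental library and 66.1% in the control library. Without them the other 14 rows summed to 1147.1 CPM in the experimental library and 1034.9 CPM in the control library, with a log2 ratio of 0.15 (interval 0.11 to 0.19). The sum without miR-181 was added after the data were seen.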
